A study of Mus musculus with 8 samples.

Results

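Genes of glycolysis, glycogen metabolism and the creatine kinase system were examined in 2 tissues of mice aged 3 months, the tibialis anterior (TA), a shin muscle, and the cerebellum, in SCA17 knock-in (KI) animals and in wild types (WT). The genes were chosen by enzyme and isozyme, 40 in all, and were matched to probe sets of the array that carry a single gene symbol. Of the 40, 36 had such a probe set, among 19938 genes on the array. For genes with more than 1 such probe set, the brightest on average over all 8 arrays stood for it. Gpi1, Pfkfb1 and Eno1 had no probe set with their symbol alone, and the 25 probe sets that list Gapdh also list other symbols, so these 4 genes were not measured here.

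Spinocerebellar ataxia SCA17 follows from a lengthened glutamine repeat in TBP, the factor that binds the TATA box. The sources used here call the animals SCA17 knock-in and give no repeat length, zygosity, strain or sex. Total RNA was hybridised to 8 Affymetrix arrays in 4 groups of 2, 1 group for each genotype in each tissue. In both tissues the KI arrays are numbered 94 and 97 and the WT arrays 95 and 96. The study text names 3 mice per genotype, and no source says which animal gave which array, so the p-values measure only the spread between these arrays.

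Skeletal muscle stores glucose as glycogen and burns it through glycolysis during contraction, while phosphocreatine buffers ATP over shorter times. Many steps of these pathways are catalysed by tissue-specific isozymes, with a form dominant in muscle and another in brain or most other tissues. Fast-twitch fibres, of which the TA is largely made, depend most on glycogen and glycolysis. Brain tissue runs the same reactions mainly on glucose taken from the blood, with neurons and glia using different isozymes.

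The median log2 value of an array was 5.4 to 5.51, and the 2 arrays within a group had a correlation of 0.977 to 0.989 across probe sets. Acta1, Myh4, Myh1, Ttn, Mb, Tnnt3 and Des, which define skeletal muscle, had a mean log2 level from 11.39 to 11.92 on the muscle arrays and from 4.998 to 5.28 on the cerebellum arrays. Gabra6, Cbln1, Cbln3, Zic1, Pcp2, Calb1 and Neurod1, which define the cerebellum, had a mean from 10.14 to 10.71 there and from 4.70 to 4.94 in muscle. Tbp RNA lay at 6.80 and 6.94 in KI and at 6.70 and 6.81 in WT muscle. The groups overlapped, and the log2 difference was 0.11 ± 0.12 (SE, n = 2 per group; adjusted p = 0.634). Its probe set does not tell the alleles apart. Values are the deposited RMA expression values on the log2 scale. "Called" means an adjusted p under 0.05 in limma, by Benjamini-Hochberg over every gene tested in the same comparison.

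The main comparison asked whether the RNA of these genes differs between KI and WT muscle. All 36 measured genes passed the filter on low values in muscle. Of them 5 fell and none rose: Pfkfb3, Pgam2, Gpd1, Phka1 and Slc2a4. Over all 13933 genes tested, 0.89% were called lower and 2.66% were called higher in KI muscle. Both KI arrays lay below both WT arrays in 20 of the 36 genes, against 19.9% of all genes tested, and above them in 4, against 30.3% of all genes. The median log2 difference was -0.14 for the 36 genes and 0.03 for all genes tested, and 24 of the 36 differences were negative. At an unadjusted p under 0.05 there were 15 of the 36, and 2822 of all 13933 genes. In whole tissue, fewer cells of a type and less RNA per cell cannot be told apart.

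**Figure D1:**
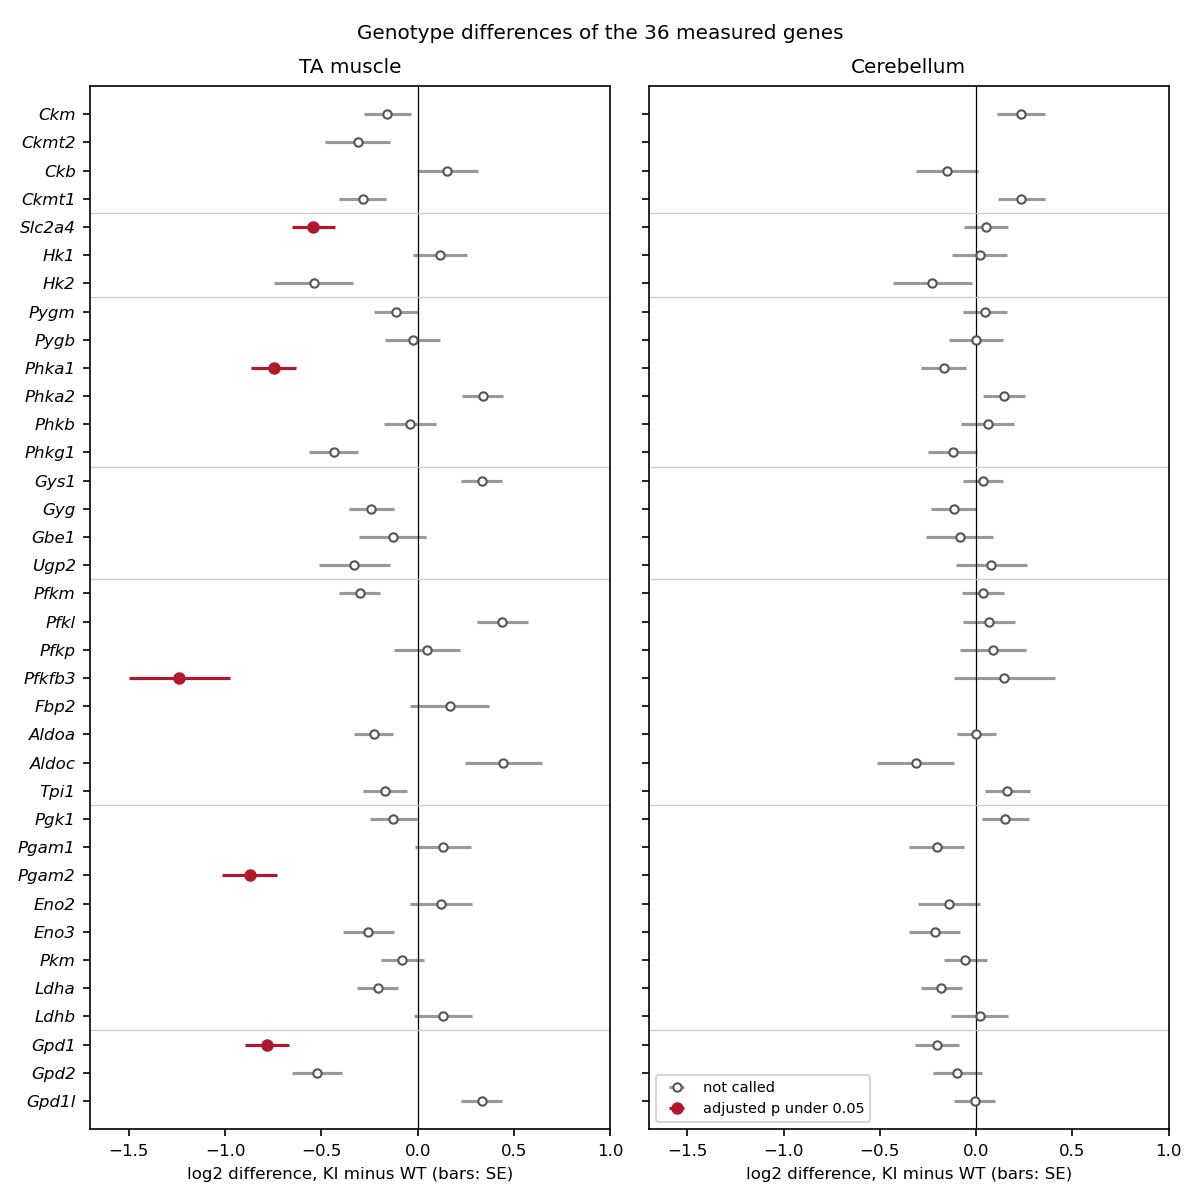
Log2 difference between KI and WT for each of the 36 measured genes in TA muscle (left) and cerebellum (right), grouped by role from phosphocreatine at the top to the glycerol phosphate shuttle at the bottom. Points are limma estimates from 2 arrays per group, bars are SE, and filled red points are genes with an adjusted p under 0.05. The 5 filled points lie between -1.24 and -0.54 in muscle, and no point is filled in the cerebellum, where Ckmt2, Fbp2 and Pgam2 were below the filter and have no point.

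The 5 genes that fell act at different steps. Pgam2 encodes the muscle form of phosphoglycerate mutase, a step of lower glycolysis. Its log2 level was 9.60 and 10.02 in KI muscle and 10.67 and 10.70 in WT muscle. Both KI arrays were below both WT arrays, the KI arrays lay further apart than the WT arrays, and the difference was 1.83-fold (log2 -0.87 ± 0.14 SE, adjusted p = 0.017). This SE pools the spread of all 8 arrays, including the cerebellum arrays, where Pgam2 was below the filter. With the muscle arrays alone in limma the adjusted p was 0.0604. Gpd1 encodes the cytosolic glycerol phosphate dehydrogenase, which passes electrons from glycolytic NADH towards the mitochondrion. It was at 9.79 and 9.77 in KI against 10.46 and 10.66 in WT, with the KI arrays close together and no overlap. The difference was 1.72-fold (log2 -0.78 ± 0.11, SE; adjusted p = 0.011).

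Phka1 encodes the muscle alpha subunit of phosphorylase kinase, which switches on glycogen breakdown. It was at 10.11 and 10.05 in KI and 10.70 and 10.96 in WT muscle. The groups did not overlap, and the gene was 1.68-fold lower in KI (log2 -0.75 ± 0.12, SE; adjusted p = 0.0135). Slc2a4 encodes GLUT4, the glucose transporter that insulin and contraction bring to the fibre surface. Its level was 9.75 and 9.88 in KI and 10.27 and 10.45 in WT muscle, again with no overlap, a 1.46-fold difference (log2 -0.54 ± 0.11, SE; adjusted p = 0.0348). Pfkfb3 encodes 1 of several bifunctional enzymes that make the sugar phosphate activating phosphofructokinase. Of the others, Pfkfb2 (log2 0.12, adjusted p = 0.555) and Pfkfb4 (0.05, adjusted p = 0.911) were not called in muscle, and Pfkfb1 was not measured. Pfkfb3 was at 6.48 and 6.80 in KI and 7.44 and 8.32 in WT muscle. The WT arrays lay far apart, both above the KI arrays, and the difference was 2.36-fold (log2 -1.24 ± 0.26, SE; adjusted p = 0.0377). Its log2 difference was -0.80 when WT muscle replicate 96 was left out and -1.68 when replicate 95 was.

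These calls rested on few arrays. Without WT muscle replicate 96 none of the 36 genes was called in limma, with 12 at an unadjusted p under 0.05. Without KI muscle replicate 94 or 97 there was 1 call, Gpd1 and Pgam2 respectively, and without WT muscle replicate 95, or any 1 cerebellum array, there were 3. Over all genes, 105 to 385 were called with 1 array left out, against 495 with all 8. Slc2a4 lost its call without any 1 of the 8 arrays (adjusted p from 0.0536 to 0.156), and Pfkfb3 lost it without any but WT muscle replicate 95 (0.0599 to 0.158). Phka1 was not called without KI muscle 94 (0.0533), KI muscle 97 (0.0727) or WT muscle 96 (0.0598). Pgam2 was not called without KI muscle 94 (0.069), WT muscle 95 (0.0879) or WT muscle 96 (0.0694). Gpd1 was not called without KI muscle 97 (0.0573) or WT muscle 96 (0.053).

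**Figure D2:**
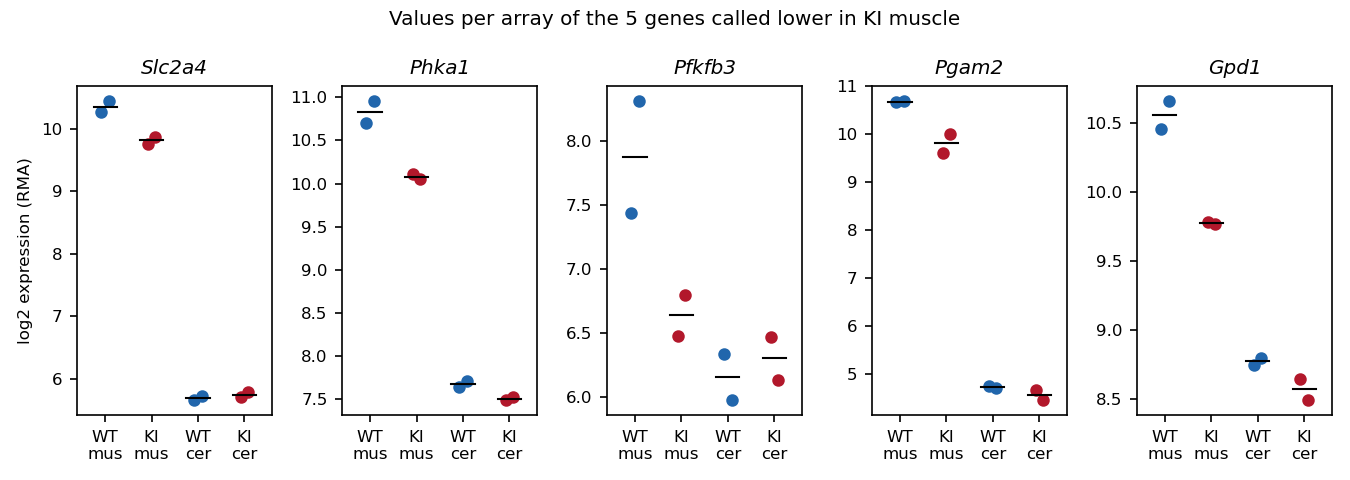
Log2 expression on each array for the 5 genes called lower in KI muscle, with WT arrays in blue, KI arrays in red, and a bar at the mean of the 2 arrays of a group (mus, muscle; cer, cerebellum). Each panel has its own vertical scale. In muscle both KI points lie below both WT points in each panel. The cerebellum groups overlap for Slc2a4 and Pfkfb3. For Phka1 and Gpd1 both KI points lie below both WT points in the cerebellum, as in 20% of all genes tested there. The Pgam2 points lie the same way, but its cerebellum values were below the 40th percentile on all 4 arrays and were not tested.

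The muscle-defining genes were lower on average on the KI muscle arrays, and their part in these results was not tested. Their mean log2 level was 11.39 and 11.57 in KI muscle and 11.82 and 11.92 in WT muscle. Of the 7, Acta1, Myh4, Myh1, Mb and Tnnt3 were lower on both KI arrays, Des was higher on both, Ttn overlapped, and 0 were called in limma (adjusted p from 0.0579 for Mb to 0.985 for Ttn). Over all genes tested in muscle, 19.9% were lower and 30.3% higher on both KI arrays. Of 7 slow-fibre markers none was called, and their mean was 6.21 and 6.51 in KI against 6.70 and 6.25 in WT muscle. Macrophage markers had a mean of 6.45 and 6.21 in KI against 6.02 and 5.99 in WT, with 0 of 8 called. Of 4 tested adipocyte markers 1 was called, the hormone gene Retn (log2 -0.60 ± 0.12, SE; adjusted p = 0.0275), which was at 5.43 and 5.47 in KI and 6.17 and 5.94 in WT. Retn was chosen for mention after its values were seen. It was not called without 5 of the 8 arrays in turn (adjusted p from 0.0524 to 0.146). The adipocyte list had a mean of 5.29 and 5.26 in KI against 5.67 and 5.22 in WT muscle.

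Creatine kinases shuttle phosphate between ATP and creatine, Ckm and Ckb in the cytosol and Ckmt2 and Ckmt1 in mitochondria. Ckm, the muscle form, was at 11.97 and 11.99 in KI and 12.09 and 12.18 in WT muscle. The groups did not overlap but lay close, and the difference was -0.16 ± 0.12 (SE; adjusted p = 0.511). Ckmt2, the mitochondrial form of striated muscle, differed by -0.31 ± 0.17 (0.331), and Ckmt1, the ubiquitous mitochondrial form, by -0.29 ± 0.12 (0.229), both with the KI arrays below the WT arrays. Ckb, the brain form, overlapped between the genotypes (0.15 ± 0.16; adjusted p = 0.637).

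For glucose entry, Slc2a4 is described above. Hk2, the insulin-responsive hexokinase of muscle, was at 7.87 and 8.16 in KI and at 8.39 and 8.73 in WT muscle. Both KI arrays were below both WT arrays, by -0.54 ± 0.20 (SE), with an adjusted p of 0.185. Hk1, the hexokinase that dominates in brain, did not separate (0.11 ± 0.14; adjusted p = 0.699). Its probe set 10414661 had log2 means of 9.90 in muscle and 9.63 in cerebellum, while the other probe set of Hk1, 10369541, had 6.03 and 8.48. The muscle difference between genotypes on the latter was 0.19.

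In glycogen breakdown the phosphorylase kinase subunits had differences of both signs. Phkg1, the muscle catalytic subunit, was at 9.66 and 9.62 in KI and 9.95 and 10.21 in WT muscle, below WT on both arrays (-0.44 ± 0.13, SE; adjusted p = 0.0963). Phka2, the alpha subunit known from liver, was at 7.13 and 7.14 in KI against 6.80 and 6.80 in WT, above WT on both arrays with tightly placed replicates (0.34 ± 0.11; adjusted p = 0.125). Phkb, the shared beta subunit, overlapped (-0.04 ± 0.14; 0.906). Pygm, the muscle glycogen phosphorylase whose loss causes McArdle disease, overlapped as well (-0.11 ± 0.11; 0.624), as did the brain form Pygb (-0.03 ± 0.14; 0.949).

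Of the 4 genes of glycogen synthesis none was called, and 3 had negative differences. Gys1, the muscle glycogen synthase, was the exception in sign, at 10.55 and 10.50 in KI and 10.19 and 10.20 in WT muscle. Both KI arrays were above both WT arrays, by 0.33 ± 0.10 (SE; adjusted p = 0.122). Ugp2, which makes UDP-glucose, differed by -0.33 ± 0.18 (0.352), Gyg, the glycogenin that primes a new chain, by -0.24 ± 0.12 (0.288), and Gbe1, the branching enzyme, by -0.13 ± 0.17 (0.723). In each of these the KI arrays lay below the WT arrays.

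In upper glycolysis the phosphofructokinase isoforms differed in sign. Pfkm, the muscle form, was at 11.51 and 11.41 in KI and 11.67 and 11.85 in WT (-0.30 ± 0.11, SE; adjusted p = 0.166). Pfkl, the liver form, was at 6.18 and 6.27 in KI and 5.64 and 5.93 in WT (0.44 ± 0.13; 0.11). Neither overlapped between genotypes and neither was called, and Pfkp, the platelet form that is also made in brain, overlapped (0.05 ± 0.17; 0.912). Aldoa, the aldolase of muscle, was below WT on both KI arrays (-0.23 ± 0.10; 0.246), as was triose phosphate isomerase, Tpi1 (-0.17 ± 0.12; 0.452). Aldoc, the brain aldolase, overlapped at 6.69 and 6.21 in KI against 5.72 and 6.29 in WT (0.45 ± 0.20; 0.255). Fbp2, the fructose bisphosphatase of muscle, overlapped too (0.17 ± 0.21; 0.701).

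In lower glycolysis Pgam2 stood alone among the calls. Pgam1, its counterpart in brain and most other tissues, was at 6.87 and 6.98 in KI and 6.89 and 6.69 in WT muscle, with overlap (0.13 ± 0.14; adjusted p = 0.656). Eno3, the muscle enolase, differed by -0.26 ± 0.13 (SE; adjusted p = 0.312), and Ldha, the lactate dehydrogenase chain of glycolytic muscle, by -0.21 ± 0.11 (0.312). Pgk1, phosphoglycerate kinase, differed by -0.13 ± 0.12 (0.611), and in these 3 genes the KI arrays lay below the WT arrays. Pkm, pyruvate kinase, overlapped (-0.08 ± 0.11; 0.733), as did Eno2, the neuronal enolase (0.12 ± 0.16; 0.727), and Ldhb, the lactate dehydrogenase chain of oxidative tissues (0.13 ± 0.15; 0.67). Pgam1 and Pgk1 each have 3 probe sets, 2 of which hold the same values on every array, and pseudogene copies may share their probes.

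The glycerol phosphate shuttle pairs cytosolic Gpd1 with the mitochondrial enzyme Gpd2. Gpd2 was at 8.90 and 8.87 in KI and 9.27 and 9.55 in WT muscle. Both KI arrays were below both WT arrays, by -0.52 ± 0.13 (SE), with an adjusted p of 0.0626 that fell to 0.0438 with the stricter filter and to 0.0307 with trended and robust variances. Gpd1l, a relative of Gpd1 known from heart sodium channel disorders, was at 7.40 and 7.55 in KI and 7.15 and 7.13 in WT, above WT on both arrays (0.33 ± 0.10; adjusted p = 0.123).

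The isozymes were next set side by side in pairs of the muscle form and the brain or other form. All 10 muscle forms had negative differences in KI muscle (median log2 -0.28), 9 of them with both KI arrays below both WT arrays, and 2 were called. Of the 10 other forms 8 had positive differences (median log2 0.13), 1 was above and 1 below WT on both arrays, and 0 were called in limma, with 2 at an unadjusted p under 0.05. Over all 13933 genes tested in muscle, 7665 differences were positive and 6268 negative. Both KI arrays lay below both WT arrays in 19.9% of all genes and above them in 30.3%. The 7 muscle-defining genes given above had a median log2 difference of -0.47 in KI muscle. Of these, Acta1, Myh4, Myh1, Mb and Tnnt3 were lower on both KI arrays, Des was higher on both and Ttn overlapped. A negative difference was thus not particular to the muscle isozymes, and the part of muscle RNA as a whole was not tested. The log2 ratio of the muscle form to the other form moved furthest for Phka1 over Phka2, by -1.08, and for Pgam2 over Pgam1, by -1.004. It moved by -0.67 for Aldoa over Aldoc and by -0.65 for Hk2 over Hk1. Aldoa changed by -0.23 and Aldoc, which overlapped between genotypes, by 0.45. Hk1 stands here for probe set 10414661, which was not higher in cerebellum than in muscle, unlike the other Hk1 probe set. The ratio moved by -0.09 for Pygm over Pygb and by -0.03 for Ckmt2 over Ckmt1, where the groups overlapped. In the other 8 pairs the ratio was lower on both KI arrays than on both WT arrays. No share over all genes can be set beside these ratios, and no test of them was made. All 10 muscle forms stayed negative without any 1 array and under each other setting that gave a muscle comparison, while the other forms were positive in 6 to 9 of 10, or 6 of 7 with the stricter filter.

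**Figure D3:**
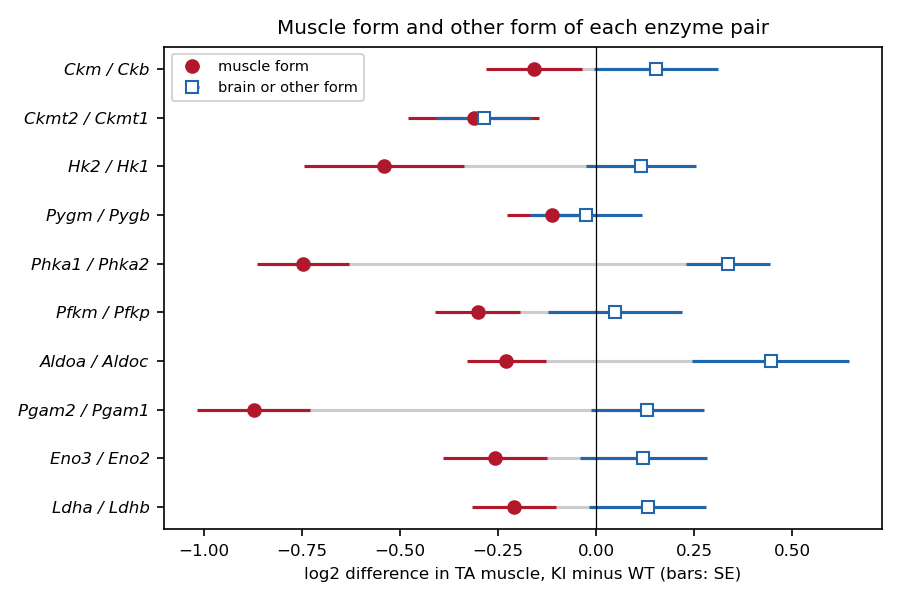
Log2 difference between KI and WT in TA muscle for 10 enzyme pairs, with the muscle form as a filled red circle and the brain or other form as an open blue square; bars are SE from limma (n = 2 per group). The red circles all lie left of 0, from -0.87 for Pgam2 to -0.11 for Pygm, and 8 of the 10 blue squares lie right of 0.

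The promoters of the 2 pairs with the largest shifts are printed so that their starts can be compared. They are RefSeq windows of assembly GRCm38.p6 from 250 bases before to 50 after the gene start, given 5′ to 3′ on the strand of the gene: Pgam2 at chr11:5803747-5804046 (minus strand), Pgam1 at chr19:41911621-41911920 (plus), Phka1 at chrX:102644197-102644496 (minus) and Phka2 at chrX:160501912-160502211 (plus). Capitals mark matches on either strand to CANNTG, the E-box bound by Myod1 and other helix-loop-helix factors, to TATAAA, the TATA box that TBP binds, or to the site of the muscle factor MEF2.
Pgam2: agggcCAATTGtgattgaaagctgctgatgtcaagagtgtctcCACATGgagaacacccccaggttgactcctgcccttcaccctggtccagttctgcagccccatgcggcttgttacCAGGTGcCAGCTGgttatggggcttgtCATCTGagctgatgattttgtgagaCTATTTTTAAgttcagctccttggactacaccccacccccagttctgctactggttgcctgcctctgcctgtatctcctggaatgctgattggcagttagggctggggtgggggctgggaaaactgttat
Pgam1: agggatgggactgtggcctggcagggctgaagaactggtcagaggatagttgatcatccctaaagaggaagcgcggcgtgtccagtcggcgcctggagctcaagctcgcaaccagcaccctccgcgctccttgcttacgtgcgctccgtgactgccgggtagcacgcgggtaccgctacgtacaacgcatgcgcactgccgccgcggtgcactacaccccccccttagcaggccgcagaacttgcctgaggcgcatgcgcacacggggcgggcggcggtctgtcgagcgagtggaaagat
Phka1: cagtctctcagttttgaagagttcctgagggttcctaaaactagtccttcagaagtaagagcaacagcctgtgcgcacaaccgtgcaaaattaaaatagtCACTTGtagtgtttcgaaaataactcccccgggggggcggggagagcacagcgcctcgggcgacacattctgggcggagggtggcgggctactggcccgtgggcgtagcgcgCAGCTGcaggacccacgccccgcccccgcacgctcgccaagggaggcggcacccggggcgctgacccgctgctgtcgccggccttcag
Phka2: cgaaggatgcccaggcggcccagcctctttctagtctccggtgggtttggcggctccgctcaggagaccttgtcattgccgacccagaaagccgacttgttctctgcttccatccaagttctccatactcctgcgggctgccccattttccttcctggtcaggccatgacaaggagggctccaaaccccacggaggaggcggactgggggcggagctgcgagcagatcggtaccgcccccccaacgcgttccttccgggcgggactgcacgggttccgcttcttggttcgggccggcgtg

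The Pgam2 window held 5 CANNTG matches, of which that at position -125 from the start reads CAGCTG, and a MEF2 match at position -80. The Phka1 window held 2 CANNTG matches, with CAGCTG at position -38. The Pgam1 and Phka2 windows held no match to these 3 motifs. Of the 36 measured genes 34 had a window, and the others were Gpd1 and Slc2a4. CAGCTG, which is 1 spelling of CANNTG, stood in a window of 14 of the 34 genes, of 7 of the 10 muscle forms and of 1 of the 10 other forms, against 18.3% of 27025 genes. CANNTG stood in 9 of 10 muscle forms and 4 of 10 other forms, against 75.0% of all genes. TATAAA stood in 0 of 10 muscle forms and in 3 of 10 other forms, Ckb, Ckmt1 and Eno2, against 15.7% of all genes. The match was at position -28 in Ckb, at -31 in a window of Ckmt1, and much further from the start, at -201, in Eno2. The MEF2 site stood in 2 of the 34 genes, Pgam2 and Ckb, against 3.70%. In Ckb the MEF2 match overlaps the TATAAA match. ACGTG, found in sites of the hypoxia factor HIF, stood in 17 of the 34 and GCGTG in 20, against 21.8% and 35.2% of all genes. A CANNTG match spelled CACGTG also holds ACGTG. Some genes have several windows, up to 4 for Pfkm, and a match in letters says nothing about binding in these tissues.

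In the cerebellum none of the genes was called. Of the 36, 33 were tested there, 0 of them with an unadjusted p under 0.05 in limma, and the differences ran from -0.31 for Aldoc to 0.23 for Ckmt1 (median 0.00). Over all 13641 genes tested, 0.147% were called higher and 0.0586% lower. Both KI arrays lay below both WT arrays in 7 of the 33 genes, against 20% of all genes, and above them in 7, against 15.3%. Aldoc, the aldolase of Bergmann glia and of stripes of Purkinje cells, was at 11.88 and 11.94 in KI and 12.20 and 12.25 in WT cerebellum. The groups did not overlap, and the difference was -0.31 ± 0.20 (SE; adjusted p = 0.998). Ckb was at 11.45 and 11.73 in KI against 11.68 and 11.81 in WT, with overlap. Gpd1, which oligodendrocytes and other cells make, was at 8.65 and 8.49 in KI against 8.75 and 8.80 in WT (-0.20 ± 0.11; 0.998), and Ckmt1 at 8.59 and 8.39 against 8.27 and 8.23 (0.23 ± 0.12; 0.997). The mean of the 7 cerebellum-defining markers was 10.14 and 10.35 in KI and 10.71 and 10.59 in WT, with both KI arrays below both WT arrays in 5 of the 7 and none called, and their part in these values was not tested.

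Whether the genotype difference itself differed between the tissues was tested by the interaction of genotype and tissue. None of the 36 genes was called, with 11 at an unadjusted p under 0.05 in limma. Among the 11 are Ckmt2 and Pgam2, whose cerebellar values were background, so the count is not read as a result. Of all 14708 genes, 2033 had an unadjusted p under 0.05 and 0.143% were called. These too include genes kept through a single tissue. Of the 36, Pfkfb3 had the largest interaction, at -1.38 ± 0.37 (SE, muscle effect minus cerebellum effect; adjusted p = 0.171), and Slc2a4 was at -0.59 ± 0.16 (0.173). Gpd1 was at -0.58 ± 0.16 (0.185) and Phka1 at -0.58 ± 0.17 (0.194). Pgam2 (adjusted p = 0.196), Ckmt2 (0.155) and Fbp2 (0.746) entered this test through muscle alone, being below the 40th percentile on all 4 cerebellum arrays, so their interaction rests on background in the cerebellum and no size is given. The calls in muscle are therefore not shown to be restricted to muscle. Ckm, Ckmt1, Pfkm, Tpi1 and Pgk1 lay below WT on both KI arrays in muscle and above WT on both KI arrays in the cerebellum. Their adjusted p for the interaction in limma ran from 0.258 for Ckmt1 to 0.486 for Pgk1. The arrays of Ckmt2 lay the same way, with its cerebellar levels below the filter. These genes were picked by this pattern. Over all genes tested, 19.9% lay below WT on both KI arrays in muscle, and 15.3% lay above WT on both in the cerebellum. The share of all genes with both was not counted.

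The comparison between tissues shows how far each isozyme is tied to muscle or brain in these mice, with the genotypes averaged. Muscle exceeded cerebellum in 24 of the 36 genes at an adjusted p under 0.05 and at least 2-fold, against 11% of all 14708 genes, and cerebellum exceeded muscle in 7, against 15%. All 10 muscle forms of the pairs were among the 24, and 7 of the 10 other forms were among the 7. Eno3 was 69.2-fold higher in muscle (log2 6.11 ± 0.09, SE; adjusted p = 6.01e-11) and Ckm 65.6-fold. Ckmt2, Pgam2 and Fbp2 are also among the 24, but they passed the filter through muscle alone and were below the 40th percentile on all 4 cerebellum arrays, so no fold is given for them. Slc2a4 was 20.6-fold, and Pygm and Phkg1 were each 17.1-fold higher in muscle. Pfkfb3 (2.04-fold) lay at the 2-fold limit and was under it without WT muscle 96 (log2 0.81), WT cerebellum 96 (0.94), KI muscle 97 (0.95) or KI cerebellum 97 (0.95), and was at 0.34 with the KI arrays alone.

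In the other direction Aldoc was 57.3-fold higher in cerebellum (log2 -5.84 ± 0.14, muscle minus cerebellum, SE; adjusted p = 5.29e-10). Eno2, the neuronal enolase, was 23.2-fold, Ckb 19.6-fold, Ckmt1 9.54-fold, Pfkp 8.06-fold, Pgam1 7.07-fold and Pygb 4.30-fold higher in cerebellum. Tpi1 (2.55-fold), Pgk1 (2.82-fold), Pkm (2.41-fold) and the muscle form Aldoa (2.32-fold) were higher in muscle. Pfkl (1.91-fold) and Ldhb (1.77-fold) were higher in cerebellum but under the 2-fold limit, as was Phka2 (1.41-fold), though Pfkl passed it without WT muscle 96 (log2 -1.003). Gpd1l did not differ beyond its error (log2 0.01 ± 0.07, adjusted p = 0.924). For Hk1 the direction depends on the probe set, with 0.27 ± 0.10 on 10414661 and -1.09 on the mean of both.

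**Figure D4:**
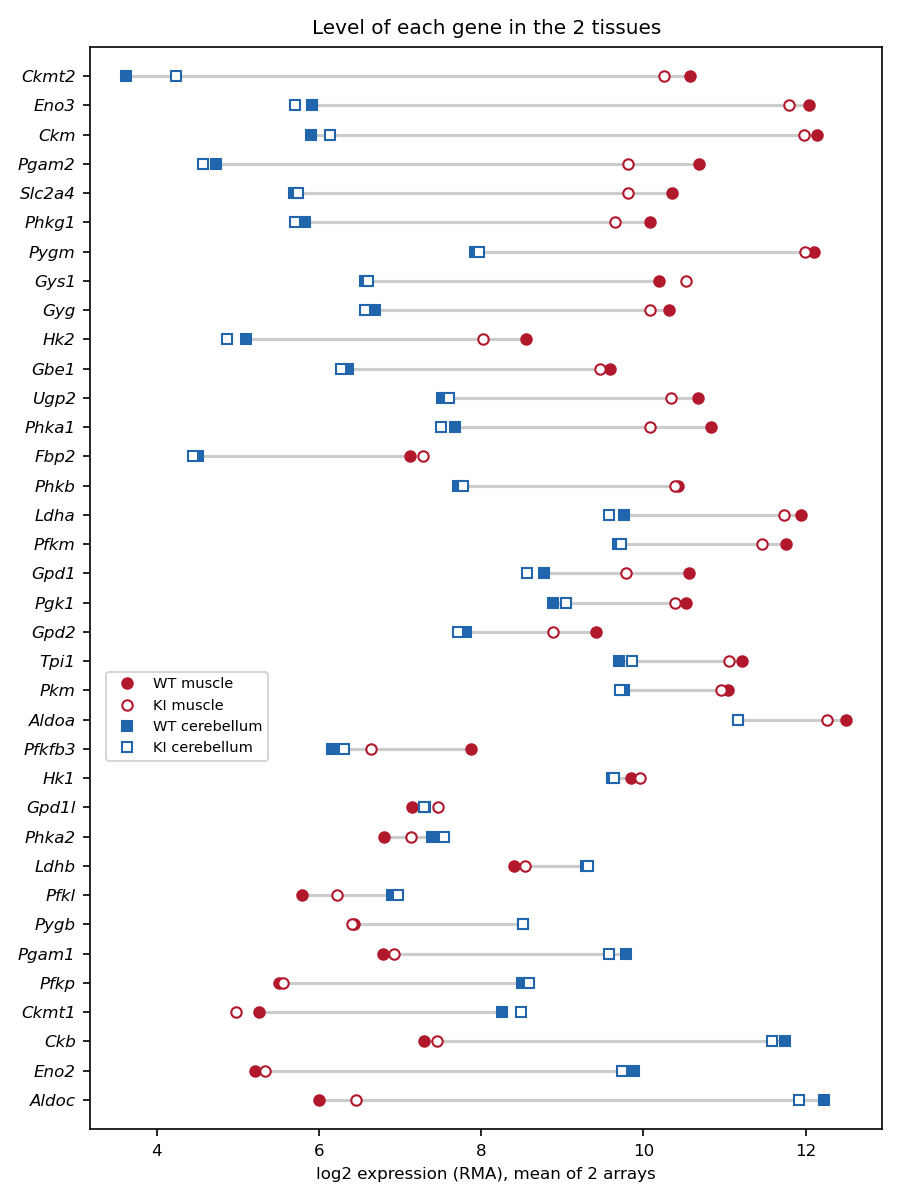
Mean log2 expression of each of the 36 genes in WT (filled) and KI (open) muscle (red circles) and cerebellum (blue squares), ordered by the difference between the tissues; each point is the mean of 2 arrays. Grey lines join the WT means. Eno3 and Ckm near the top are far higher in muscle, and Aldoc, Eno2 and Ckb at the bottom are far higher in cerebellum. Ckmt2, at the top, Pgam2 and Fbp2 were below the 40th percentile on all 4 cerebellum arrays, so their gaps rest on background there. Levels of different genes rest on different probes and are not comparable.

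A further 60 genes of the same pathways, listed by function, were examined in muscle. Of these 56 had a probe set and 50 were tested, of which 4 fell and 1 rose, beside the 0.89% and 2.66% of all genes given above. The median log2 difference of the 50 was -0.02. Both KI arrays lay below both WT arrays in 15 of the 50, against 19.9% of all genes tested, and above them in 12, against 30.3%. Slc16a3, the MCT4 carrier by which glycolytic fibres export lactate, was at 8.35 and 8.53 in KI and 9.03 and 9.41 in WT muscle. The groups did not overlap, and the difference was -0.78 ± 0.14 (SE; adjusted p = 0.0234).

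Ppp1r3c, which brings protein phosphatase to glycogen and so favours its synthesis, was at 8.95 and 8.48 in KI and 9.79 and 9.49 in WT (-0.93 ± 0.19; 0.0348). Pgm1, phosphoglucomutase, which links glycogen to glycolysis, was at 9.89 and 9.70 in KI and 10.43 and 10.49 in WT (-0.67 ± 0.13; 0.0284). Tigar, a phosphatase that diverts sugar phosphates from glycolysis, was at 7.73 and 7.76 in KI and 8.33 and 8.30 in WT (-0.56 ± 0.11; 0.032). In each of the 3 both KI arrays were below both WT arrays. Pdk3, a kinase that switches off pyruvate dehydrogenase, rose from 4.85 and 5.05 in WT to 5.98 and 5.72 in KI muscle (0.90 ± 0.14; 0.0126). Its WT level lay near the filter, with WT muscle 95 below its own array's 40th percentile and WT muscle 96 just above. The size of this rise therefore rests on dim WT values, and Pdk3 was not among the genes tested with the stricter filter.

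Genes of the list that did not pass included Pdk4 (-0.34, adjusted p = 0.651), the main muscle kinase of this family, Slc2a1, the basal glucose transporter (0.24, 0.383), Ppp1r3a, the glycogen-targeting subunit of muscle (-0.48, 0.123), and Ak1, the muscle adenylate kinase (-0.01, 0.961). Leaving out any muscle array ended the calls of Pgm1 (adjusted p from 0.0645 to 0.129) and Tigar (0.0912 to 0.145). Slc16a3 was not called without KI muscle 94 (0.112), WT muscle 96 (0.0876) or KI muscle 97 (0.067), and Pdk3 not without KI muscle 94 (0.0614) or WT muscle 95 (0.0833). Ppp1r3c was called without KI muscle 94 (0.0389) but not without any 1 of the other arrays (0.0507 to 0.199), and Tigar not without KI cerebellum 94 or 97 (0.0518). None of the 47 tested in the cerebellum was called, with 0 at an unadjusted p under 0.05 in limma.

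**Figure D5:**
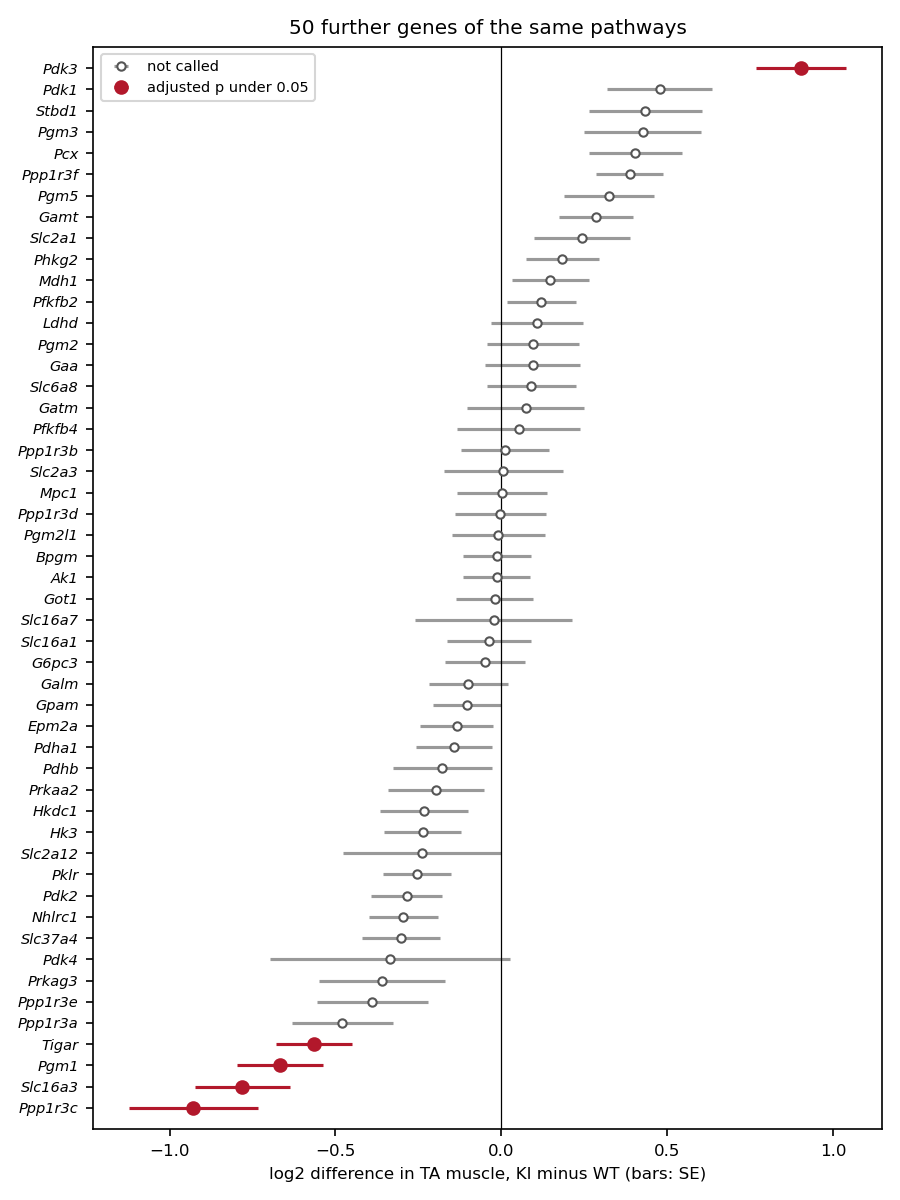
Log2 difference between KI and WT in TA muscle for the 50 tested genes of the wider pathway list, ordered by size; points are limma estimates with SE (n = 2 arrays per group) and filled red points have an adjusted p under 0.05. Ppp1r3c, Slc16a3, Pgm1 and Tigar are filled at the negative end and Pdk3 at the positive end.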

How the data were processed

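The authors deposited 1 log2 expression value for each probe set of each array. The submitters' processing notes name GCOS and RMA, without versions. RMA subtracts background, equalises intensity distributions and summarises probes by median polish, which can compress differences of dim and very bright probe sets. Of 35556 probe sets, 21789 carried 1 platform symbol, naming 19938 genes.

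Genes entered the test of a tissue if 2 or more of its 4 arrays reached their own array's 40th percentile over the probe sets, which kept 13933 in muscle, 13641 in cerebellum and 14708 in either. Means of the 4 groups were fitted across all genes with limma 3.58.1 in R 4.3.3 (4 residual and 5.30 prior degrees of freedom). Errors of differences are SE from this fit, with Benjamini-Hochberg adjustment. The fit was tested on simulated data. The small number of arrays limits the precision.

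The genes, pairs and lists were chosen with earlier results of these data known. All measured genes of the set and the called genes of the wider list are named. Uncalled ones of the wider list, and Retn, were picked after their values were seen.

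Alternatives were other filters, normalisations, probe set rules and variance models, arrays left out (same genes tested) and the replicate number as a block.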

Additional observations from a re-analysis of the deposited data

How the results depend on the processing

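The count of 5 genes called in muscle became 3 with no filter and 1, Gpd1, with the muscle arrays alone, and ran from 0 to 3 with 1 array left out. Over all genes, 246 were called with no filter and 155 with the muscle arrays alone, against 495. The count for the glycolysis, glycogen and creatine kinase genes was 5 or 6 under the other settings and 5 with the replicate block, random, whose consensus correlation was -0.07. The cerebellum and interaction counts stayed at 0 in the 16 alternatives of each, among them the fixed replicate block for the interaction. With quantile normalisation the interaction over all genes was called positive in 15 and negative in 10, against 15 and 6. The count between tissues was from 30 to 32 in 18 alternatives. Hk1 reversed between tissues, to -1.09 with the mean of all its probe sets, since its probe sets disagree. In the muscle comparison 11 of 573 values, taken over called and uncalled genes of the set, changed sign, all in genes without a call. Same-numbered arrays of the 2 tissues did not deviate together (r over genes 0.06 in KI and -0.10 in WT). With 2 arrays per group and different tissues, these values cannot show whether same-numbered arrays share an animal. Arrays were not paired because no source says which animal gave which array. With 2 arrays per group, signal over background and spread limit which small differences can be called.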
